A study of Mus musculus with 10 samples.

Results

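The Hox genes encode homeodomain transcription factors that give cells a position along the body axis. In mice they lie in the clusters Hoxa, Hoxb, Hoxc and Hoxd, whose genes stand in the order of their numbered paralog groups. Genes of low number act towards the head and are switched on early in the embryo, and genes of high number act towards the tail and later, a match of order and expression called colinearity. Polycomb complexes hold the clusters silent, proteins of the MLL and trithorax group keep them active, retinoic acid switches on genes at the low-numbered end, and HOX proteins bind DNA with PBX and MEIS partners.

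All rows of the expression matrix whose gene symbol was Hoxa, Hoxb, Hoxc or Hoxd followed by a number were taken, which gave 40 of 21969 rows and 39 symbols, since Hoxd4 stood on 2 rows. The Hoxa cluster had 11 rows, Hoxb 10, Hoxc 9 and Hoxd 10. Paralog groups 1 to 3 are called anterior here, 4 to 8 central and 9 to 13 posterior. The filter on low values was FPKM 1 or more (fragments per kilobase of transcript, scaled to library size) in at least 2 of the 10 libraries. It was passed by 34 of the 40 rows, namely 9 of Hoxa, 10 of Hoxb, 9 of Hoxc and 6 of Hoxd. Of these 34, 4 reached FPKM 1 in libraries of only 1 group, namely Hoxa5, Hoxa6, Hoxd11 and Hoxd13 at week 1. Another 5, Hoxa4, Hoxc5, Hoxd4, Hoxd9 and Hoxd10, did so in libraries of 2 groups. Such genes had to differ between groups to be tested at all.

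The libraries came from DBA/2 mice in a study of the induction of the immune checkpoint ligand PD-L1 in spermatogonial stem cells, the stem cells of the male germ line. Week 0 was adult testis cells enriched by magnetic sorting for the surface protein CD9. Weeks 1, 2 and 3 were such cells kept for that time in an Iscove's-based medium with human FGF2, rat GDNF and fetal bovine serum. GS cells were cultures of the same strain and medium that were already established. Each of the 5 groups had 2 libraries. The sources used here do not say if feeder cells were present. The labels do not state that replicates were separate animals or cultures. The p-values below therefore measure the spread between libraries, which can be technical.

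The read steps in the FPKM values gave depths of 10.34 to 21.06 M reads. At this depth, FPKM 1 stood for 21.6 to 44.0 reads of a 2287-nucleotide transcript, the median length among the Hox genes, and 3 reads stood for 0.139 FPKM in the shallowest library. Replicates correlated at r = 0.987 to 0.994 across genes, which are not independent replicates. The labelled cell type was checked against marker genes. The summed level of 10 markers of undifferentiated spermatogonia was 94.3 to 97.5 FPKM at week 0, 535.8 to 550.2 at week 1, 635.6 to 662.3 at week 2, 506.9 to 538.5 at week 3, and then 703.4 to 709.3 in GS cells. The sum of 8 spermatid markers was 24370 to 26160 FPKM at week 0 and 167.1 to 180.1 at week 1, and it did not exceed 8.72 in any later library. The label of stem cells at week 0 thus covered libraries that held large amounts of spermatid RNA.

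In these cultures the set of expressed Hox genes changed within the first week. At week 0, Hoxa4 and Hoxd8 made up most of the Hox RNA and the Hoxb cluster was nearly silent. At week 1 all 10 Hoxb genes and all 9 Hoxc genes were higher than at week 0. All tested Hoxa and Hoxd genes fell at week 2 against week 1, and 7 of the 9 Hoxc genes fell at week 3 against week 2. Some of these Hoxa and Hoxd genes passed the filter through week 1, or weeks 0 and 1, alone, so the filter shaped their count. In GS cells against week 1, Hoxb9 alone of the Hoxb genes was lower. GS cells thus had 90.6% of their summed Hox FPKM in Hoxb.

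**Figure D1:**
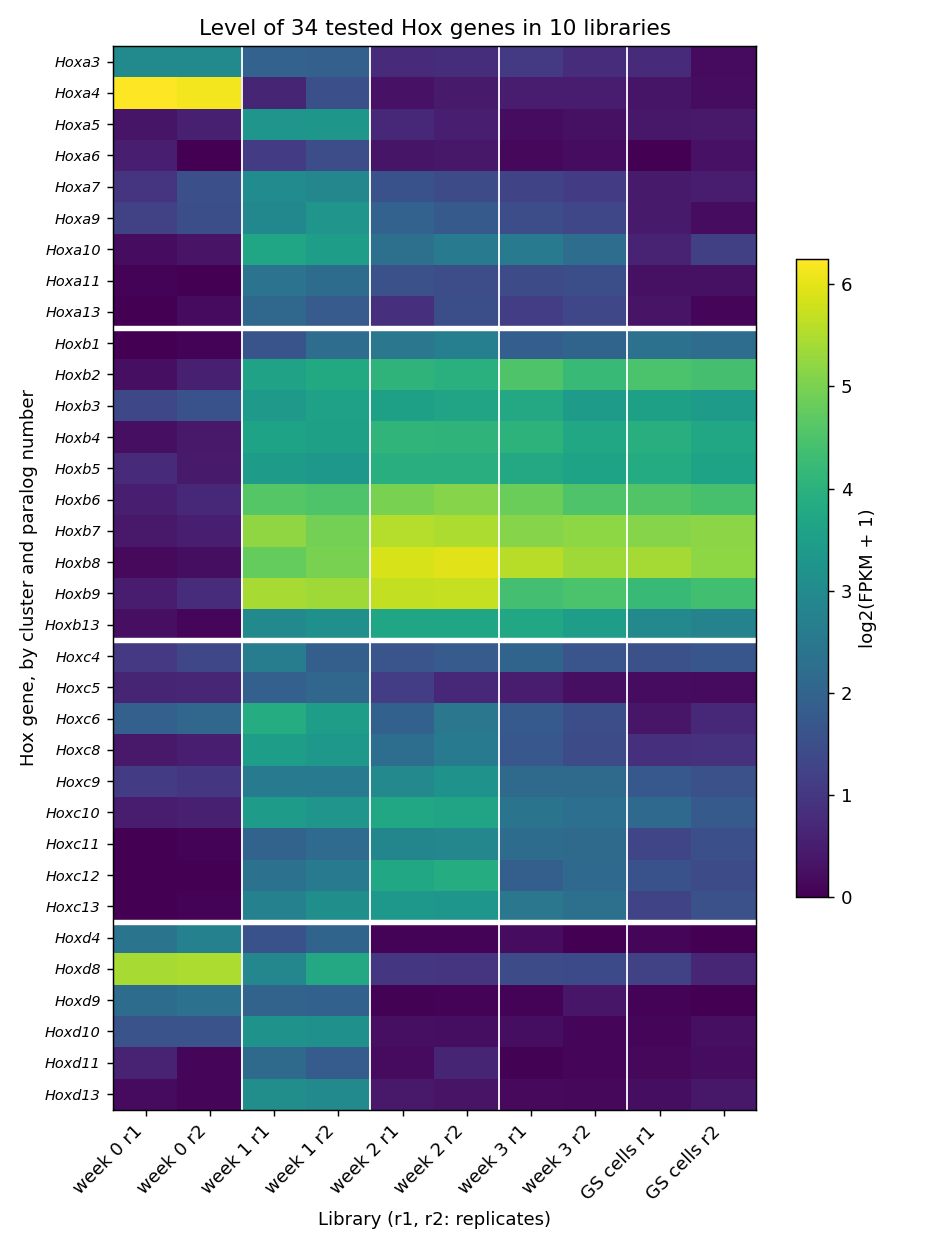
Level of each of the 34 Hox genes that passed the filter (rows, grouped by cluster and ordered by paralog number) in each of the 10 libraries (columns, by group), as log2(FPKM + 1). Hoxa4 and Hoxd8 stand out at week 0, most rows are higher at week 1 than at week 0, and in GS cells the Hoxb block is the one still bright.

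The summed Hox FPKM of the Hoxb cluster averaged 4.69 ± 0.788 at week 0, 178.6 ± 0.0469 at week 1, 261.1 ± 4.50 at week 2, 194.9 ± 15.3 at week 3, and then 179.7 ± 8.73 in GS cells (SD, n = 2 libraries each). For Hoxa the sum was 83.6 ± 2.73 at week 0, 48.5 ± 0.246 at week 1, 14.8 ± 0.792 at week 2, 13.1 ± 1.22 at week 3, and then 3.14 ± 0.0964 in GS cells. The Hoxb mean thus stayed at or above that of week 1 in every later group, while the Hoxa mean was lower in each later group. The first-week fall of the Hoxa sum lay mostly in Hoxa4, with means of 72.6 FPKM at week 0 and 1.23 at week 1. At that step 7 of the 9 tested Hoxa genes rose. The Hoxc sum was 6.74 ± 0.682 at week 0, 57.1 ± 3.23 at week 1, 58.8 ± 2.69 at week 2, 25.5 ± 1.91 at week 3, and then 13.8 ± 0.0524 in GS cells. The Hoxd sum was 54.9 ± 0.968 at week 0, 35.0 ± 2.93 at week 1, 2.02 ± 0.364 at week 2, 2.36 ± 0.0084 at week 3, and then 1.71 ± 0.407 in GS cells. Hoxc held its level for a week longer than Hoxd, which was nearly gone at week 2. In bulk RNA, fewer cells of a type and less RNA per cell cannot be told apart.

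**Figure D2:**
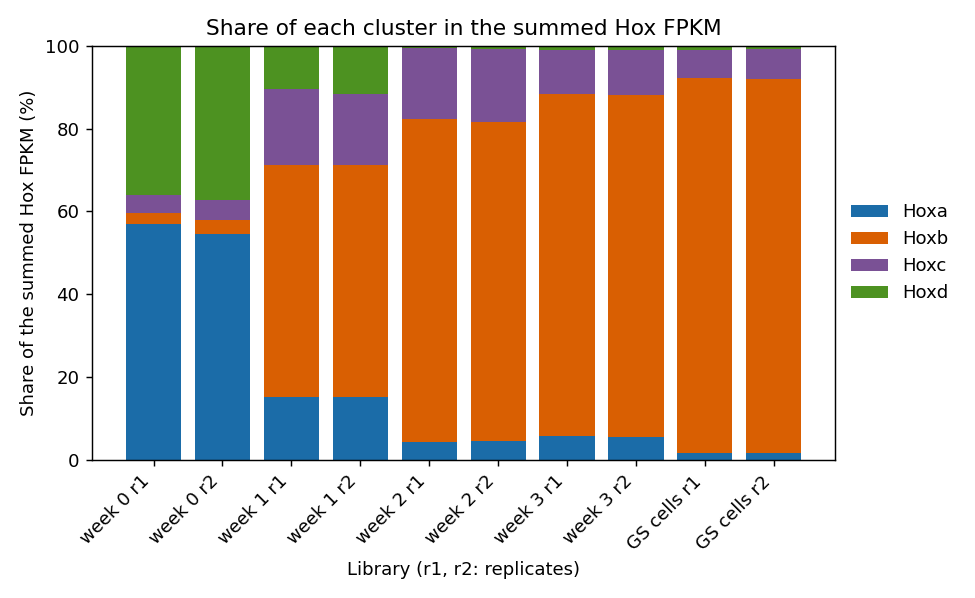
Share of the summed Hox FPKM (vertical axis, percent) taken by each of the 4 clusters, stacked to 100, in each of the 10 libraries (horizontal axis). The Hoxb share averages 3.13% at week 0 and is larger in each later group, up to 90.6% in GS cells.

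By position, the posterior genes took 6.96% of the Hox sum at week 0, 38.8% at week 1, 36.0% at week 2, 25.4% at week 3, and then 18.7% in GS cells. Anterior genes took 6.20%, 9.76%, 9.78%, 15.3% and 17.9% in the same order of groups, and central genes held the rest, between 51.4% at week 1 and 86.8% at week 0. The posterior share was thus highest at week 1 and the anterior share in GS cells. Without Hoxb8, the most abundant central gene from week 2 on, the posterior share was highest at week 2, with 43.7% there and 42.7% at week 1. In the week 0 libraries the central share lay mostly in Hoxa4 (50.1% and 46.7% of the Hox sum) and Hoxd8 (28.3% and 29.0%). The shares were not computed without these genes. In Hoxc, Spearman's rho between paralog number and mean FPKM was -0.833 at week 0, 0.1 at week 1, 0.867 at week 2 and 0.767 at week 3, over 9 genes. It was 0.283 in GS cells. Higher-numbered Hoxc genes were thus the lower ones at week 0 and the higher ones at weeks 2 and 3. In Hoxb rho was 0.0545 at week 0, 0.442 at week 1, 0.576 at week 2, 0.406 at week 3, and then 0.321 in GS cells over 10 genes. In Hoxa it was -0.291, 0.591, 0.709, 0.664 and 0.3 in the same order of groups over 11 genes, and in Hoxd, over 9 genes, it was -0.133 at week 0 and 0.4 at week 1. These values are descriptions over rows that share their libraries.

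Of the 34 Hox genes tested at week 1 against week 0, 29 were called higher, against 36.3% of all 15671 genes tested, and 5 lower, against 44.0% of all genes. A call is an adjusted p under 0.05 in limma's moderated test on log2(FPKM + 1), with Benjamini-Hochberg adjustment over all genes. All p-values below are of that kind. The median log2 fold change of the tested Hox genes was 2.03, against -0.14 over all genes. At week 2 against week 1, 10 Hox genes were called higher and 18 lower, with backgrounds of 28.2% and 27.4%, and a Hox median of -0.73 against 0.03 over all genes. Falls outnumbered rises, and the share of rises was close to its background. The 29 genes higher at week 1 and the 18 lower at week 2 include Hoxa5, Hoxa6, Hoxd11 and Hoxd13, which passed the filter through week 1 alone, so their part in these counts follows from the filter. The 18 also include Hoxa4, Hoxc5, Hoxd4, Hoxd9 and Hoxd10, which reached FPKM 1 in libraries of only 2 groups. The filter shaped their part in that count too.

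At week 3 against week 2, 0 Hox genes were called higher, with a background of 10.6%, and 11 lower, with a background of 10.7%. GS cells against week 3 gave 0 higher and 12 lower, with backgrounds of 11.7% and 10.8%. At an unadjusted p under 0.05, limma gave 1 Hox gene higher at week 3 against week 2 and 0 higher in GS cells against week 3, and no other tool was run. GS cells against week 0 gave 17 higher and 10 lower, with backgrounds of 34.7% and 45.9%, and GS cells against week 1 gave 2 higher and 25 lower, with backgrounds of 29.7% and 29.0%. The 25 include Hoxa5, Hoxa6, Hoxd11 and Hoxd13, whose part in this count again follows from the filter. Both the 25 and the 10 lower than week 0 include Hoxa4, Hoxc5, Hoxd4, Hoxd9 and Hoxd10. These reached FPKM 1 in libraries of only 2 groups, neither of them GS cells, so the filter shaped their part too. The F test over all groups called 34 of the 34 tested, where it called 93.8% of all genes.

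Scaling moved these splits. Under quantile normalization the median of all genes at week 1 against week 0 was 0.38, and 59.8% of all called genes were higher, where the authors' scale gave 45.2%. The share called higher at week 2 against week 1 was 61.8% with quantile normalization and 66.4% with FPKM rescaled to the same sum, and 50.7% on the authors' scale. For GS cells against week 0 the shares were 61.1%, 54.7% and 43.0% in that order, and for GS cells against week 1 they were 60.0%, 62.3% and 50.6%. Gene values below are on the authors' scale, and a Hox call that another scaling ends is named below. Calls of single genes outside the Hox clusters are given on the authors' scale alone, without a check under other scalings.

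The genes that led the Hox RNA at week 0 were Hoxa4 (chr6:52189671-52191753, minus strand, GRCm38 as are all coordinates here) and Hoxd8 (chr2:74704615-74707933, plus strand). Hoxa4 is known in mice for its expression in male germ cells during and after meiosis. It was at 75.2 and 70.0 FPKM at week 0, then 0.559 and 1.89 at week 1, then 0.232 and 0.374 at week 2, then 0.395 and 0.38 at week 3, then 0.272 and 0.153 in GS cells. It made up 50.1% and 46.7% of the Hox FPKM of the week 0 libraries, and both lay far above every other library. Hoxa4 passed the filter through week 0 and week 1 replicate 2. Its log2 fold change of -5.11 at week 1 against week 0 (SE 0.25) is thus a description. A smaller fall followed at week 2 against week 1 (log2 fold change -0.71, SE 0.25, adjusted p = 0.0418). That later call was lost without week 1 replicate 2, where the log2 fold change was -0.26 (adjusted p = 0.16). It was kept without week 1 replicate 1, where it was -1.15 (adjusted p = 0.000776). It was also lost with any other single library left out (adjusted p = 0.0535 to 0.159) and under both other scalings, quantile normalization (adjusted p = 0.127) and FPKM rescaled to the same sum (adjusted p = 0.0615).

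Hoxd8, a central gene of the Hoxd cluster expressed along the trunk in embryos, was at 42.5 and 43.4 FPKM at week 0, then 6.4 and 12.7 at week 1, then 0.993 and 0.941 at week 2, then 1.74 and 1.66 at week 3, then 1.35 and 0.597 in GS cells. It gave 28.3% and 29.0% of the Hox FPKM at week 0, and the groups week 0, week 1 and week 2 did not overlap. Hoxd8 fell at week 1 against week 0 (log2 fold change -2.12, SE 0.28, adjusted p = 0.000144). Week 2 was lower than week 1 (log2 fold change -2.36, SE 0.28, adjusted p = 0.000222), and GS cells were lower than week 0 (log2 fold change -4.50, SE 0.28, adjusted p = 1.14e-06). Spermatid markers moved with both genes. All 8 of them fell at week 1 against week 0 with a median log2 fold change of -7.27, and Prm1, Prm2, Tnp2 and Acrv1 were at 0 in both libraries at week 2 and in GS cells. Markers of Leydig cells, the steroid-making cells between the tubules, also moved that way, with a sum of 7 markers of 1525 to 1769 FPKM at week 0 and 77.9 to 84.6 at week 1. Of 11 Sertoli cell markers, 10 fell at that step and 1 rose, with a sum of 679.1 to 689.5 FPKM at week 0 and 281.6 to 283.2 at week 1. The part of these cell types in the levels of Hoxa4 and Hoxd8 was not tested.

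The other Hox genes that fell at week 1 against week 0 were Hoxa3, Hoxd4 and Hoxd9. Hoxa3, needed for thymus and parathyroid glands, was at 6.9 and 6.8 FPKM at week 0, then 2.88 and 2.8 at week 1, then 0.702 and 0.771 at week 2, then 1.09 and 0.731 at week 3, then 0.681 and 0.133 in GS cells. The libraries of weeks 0, 1 and 2 did not overlap. Hoxa3 fell at week 1 against week 0 (log2 fold change -1.03, SE 0.18, adjusted p = 0.000876) and again at week 2 against week 1 (log2 fold change -1.15, SE 0.18, adjusted p = 0.00104). The span of Hoxa3 holds Hoxa4, Hoxa5 and Hoxa6, with which it shares 0 exon bases in GENCODE M21. It shares 482 exon bases with the readthrough gene Gm28308, which did not exceed 0.431 FPKM. Hoxd4, which shapes neck vertebrae, was at 4.27 and 5.71 FPKM at week 0, then 1.96 and 3.06 at week 1, then 0.0367 and 0.0457 at week 2, then 0.16 and 0 at week 3, then 0.0834 and 0 in GS cells. Hoxd4 was lower at week 1 against week 0 (log2 fold change -0.78, SE 0.18, adjusted p = 0.00339). At week 2 it was near 0, with a log2 fold change of -1.74 against week 1. That change is a description, since Hoxd4 passed the filter through weeks 0 and 1 alone. The level of Hoxd4 is uncertain, because it shares 388 exon bases with Hoxd3 and 1154 with the readthrough gene Gm28230. A second Hoxd4 row, not found in GENCODE M21, had 0.991 and 0.169 FPKM at week 0 and at most 0.256 in any later library.

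The first-week falls of Hoxa3 and Hoxd4 did not pass with a pseudocount of 0.1 (adjusted p = 0.0506 for Hoxa3 and 0.102 for Hoxd4) or with quantile normalization (adjusted p = 0.0666 for Hoxa3 and 0.608 for Hoxd4). For Hoxd9, given with its cluster below, the first-week log2 fold change turned to 0.35 with quantile normalization (adjusted p = 0.0529) and was -0.12 with FPKM rescaled to the same sum (adjusted p = 0.412).

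The Hoxb cluster spans chr11:96194316-96368256 on the plus strand, 174 kb with Hoxb13 at the low-coordinate end, and its genes behaved alike: close to silent at week 0, high at week 1 and still high in GS cells. The start regions of Hoxb1, Hoxb4 and Hoxb8 are shown, the only Hoxb genes for which a window was found. These genes rose at week 1, like the rest of the cluster, and run from its least to its most abundant gene at week 2. Each window has 250 bases before and 50 after the start of the gene in RefSeq on GRCm38.p6, plus strand. The windows lie at chr11:96365508-96365807 for Hoxb1, chr11:96318017-96318316 for Hoxb4 and chr11:96281655-96281954 for Hoxb8. Capitals mark matches, on either strand, to TATAAA (the core of the box known by that name), TGATNNAT (a core bound by HOX-PBX pairs) or DR5, the direct repeat of AGGTCA that retinoic acid receptors bind, with 5 bases of any kind between the copies.
Hoxb1: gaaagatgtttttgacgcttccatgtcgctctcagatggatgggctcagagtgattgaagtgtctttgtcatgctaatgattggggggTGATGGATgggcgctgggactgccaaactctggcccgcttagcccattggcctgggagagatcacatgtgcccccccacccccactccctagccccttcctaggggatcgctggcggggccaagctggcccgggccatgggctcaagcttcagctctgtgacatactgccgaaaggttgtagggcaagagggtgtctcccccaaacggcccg
Hoxb4: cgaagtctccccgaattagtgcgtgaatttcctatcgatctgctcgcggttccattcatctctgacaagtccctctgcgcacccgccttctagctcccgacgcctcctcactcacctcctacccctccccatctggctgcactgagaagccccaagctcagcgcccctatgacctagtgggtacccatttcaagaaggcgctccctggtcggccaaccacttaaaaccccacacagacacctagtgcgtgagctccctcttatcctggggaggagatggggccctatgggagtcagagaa
Hoxb8: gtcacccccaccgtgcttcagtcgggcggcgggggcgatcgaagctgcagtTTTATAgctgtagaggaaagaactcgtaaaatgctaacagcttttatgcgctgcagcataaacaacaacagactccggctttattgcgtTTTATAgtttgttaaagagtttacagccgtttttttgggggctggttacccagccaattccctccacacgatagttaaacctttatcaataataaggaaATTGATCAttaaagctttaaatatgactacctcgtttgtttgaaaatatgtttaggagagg

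Hoxb1 holds a match to TGATNNAT, Hoxb4 none of the 3 motifs, and Hoxb8 2 matches to TATAAA, both on the minus strand, and 1 to TGATNNAT, with no overlap. RefSeq windows were found for 22 Hox genes, some with more than 1 start, 24 windows in all. Of these, 3 belong to Hoxb and 1 to Hoxc. TATAAA occurred in 4 of these 24, against 13.6% of all 32851 windows of the table, and TGATNNAT in 4 of 24, against 8.85% of all. The direct repeat occurred in 0 of 24, against 0.00913% of all. The Hox windows had a median of 14.5 CpG dinucleotides, with 10 in Hoxb1, 14 in Hoxb4 and 13 in Hoxb8, against a median of 7 over all windows. A match is a run of letters and was not linked to binding here.

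Hoxb8, which acts in microglia and spinal sensory circuits, was at 0.119 and 0.169 FPKM at week 0, then 26.3 and 31.1 at week 1, then 57.6 and 62.1 at week 2, then 46.4 and 40.4 at week 3, then 41.8 and 35.6 in GS cells. Weeks 0, 1 and 2 did not overlap, and the week 3 and GS libraries lay between weeks 1 and 2, overlapping each other. Hoxb8 rose at week 1 against week 0 (log2 fold change 4.70, SE 0.13, adjusted p = 6.85e-09). A further rise came at week 2 against week 1 (log2 fold change 1.04, SE 0.13, adjusted p = 0.000247). It was the leading Hox gene in every library of weeks 2 and 3 and of GS cells, with 17.4% to 20.4% of the Hox sum. Week 3 was lower than week 2 (log2 fold change -0.46, SE 0.13, adjusted p = 0.0383). GS cells were higher than week 1 (log2 fold change 0.42, SE 0.13, adjusted p = 0.0217).

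Hoxb9, which patterns ribs and the breastbone, was at 0.407 and 0.726 FPKM at week 0, then 42.1 and 40.3 at week 1, then 49.8 and 50.8 at week 2, then 19.9 and 21.4 at week 3, then 17.5 and 19.3 in GS cells. It led the Hox genes at week 1, and the libraries of week 3 and GS cells lay below those of weeks 1 and 2 without overlap. Hoxb9 rose at week 1 against week 0 (log2 fold change 4.76, SE 0.12, adjusted p = 4.78e-09). Week 3 was lower than week 2 (log2 fold change -1.25, SE 0.12, adjusted p = 0.000484). GS cells were lower than week 1 (log2 fold change -1.12, SE 0.12, adjusted p = 9.72e-05), the sole Hoxb gene of which this was called.

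Hoxb7, whose start region is used in mice to mark the collecting duct of the kidney, was at 0.355 and 0.435 FPKM at week 0, then 36.3 and 30.0 at week 1, then 46.2 and 43.4 at week 2, then 33.9 and 35.7 at week 3, then 33.5 and 34.9 in GS cells. Hoxb6, expressed in lateral mesoderm of the embryo, was at 0.431 and 0.631 FPKM at week 0, then 23.2 and 22.2 at week 1, then 31.1 and 33.8 at week 2, then 27.8 and 22 at week 3, then 22.5 and 20.7 in GS cells. In both genes the week 2 libraries were the highest and the libraries of week 3 and GS cells returned to the week 1 range or near it. Their log2 fold changes at week 1 against week 0 were 4.61 for Hoxb7 (SE 0.11, adjusted p = 3.75e-09), and 3.95 for Hoxb6 (SE 0.14, adjusted p = 2.72e-08). Against week 1 the differences of GS cells were 0.05 for Hoxb7 (SE 0.11) and -0.07 for Hoxb6 (SE 0.14), neither of them called.

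**Figure D3:**
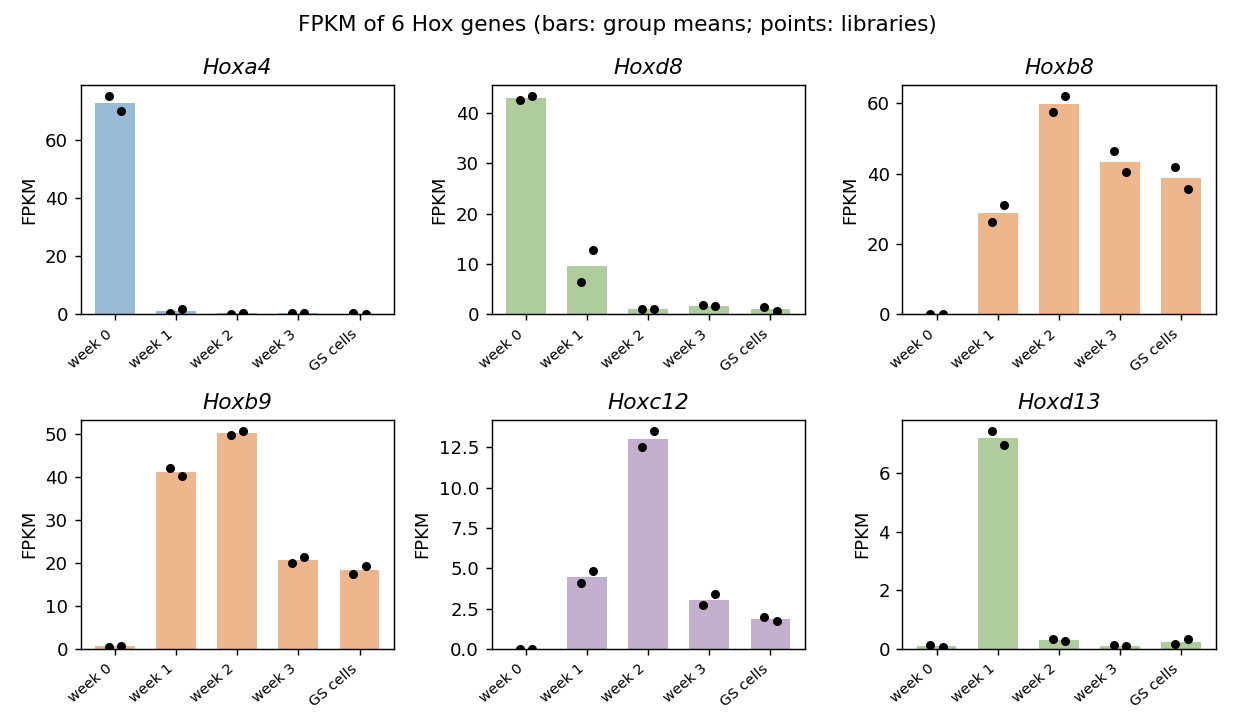
FPKM of Hoxa4, Hoxd8, Hoxb8, Hoxb9, Hoxc12 and Hoxd13 in each library (points) with the mean of 2 (bar), by group from week 0 to GS cells. Hoxa4 and Hoxd8 are highest at week 0, Hoxd13 is high at week 1 alone, Hoxc12 peaks at week 2 with 12.5 and 13.5 FPKM, and Hoxb8 stays above 35 FPKM from week 2 on.

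Hoxb5, which helps place the shoulder girdle, was at 0.684 and 0.374 FPKM at week 0, then 9.89 and 9.1 at week 1, then 14 and 14.5 at week 2, then 12.7 and 11.4 at week 3, then 13.3 and 11.4 in GS cells. Hoxb4, used to expand blood stem cells in culture, was at 0.204 and 0.334 FPKM at week 0, then 11.4 and 10.7 at week 1, then 16.2 and 15.9 at week 2, then 15.4 and 12.4 at week 3, then 14.5 and 12.2 in GS cells. Hoxb3, which acts in hindbrain and thyroid development, was at 1.54 and 1.99 FPKM at week 0, then 9.33 and 10.9 at week 1, then 10.8 and 11.5 at week 2, then 12.6 and 9.71 at week 3, then 10.7 and 9.73 in GS cells. All 3 were above 9 FPKM in every library after week 0, where none exceeded 2. They rose at week 1 against week 0 by 2.79 (Hoxb5, adjusted p = 3.1e-07), 3.25 (Hoxb4, adjusted p = 1.17e-07) and 2.01 (Hoxb3, adjusted p = 4.69e-06) on the log2 scale. Against week 1 the differences of GS cells were 0.34 for Hoxb5 (SE 0.14), 0.25 for Hoxb4 (SE 0.14) and 0.02 for Hoxb3 (SE 0.16), none of them called.

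Hoxb2, a hindbrain gene, was at 0.203 and 0.467 FPKM at week 0, then 11.1 and 12.9 at week 1, then 15.7 and 14.7 at week 2, then 22.1 and 17.9 at week 3, then 21.2 and 20.1 in GS cells. It was the one Hoxb gene whose mean was highest in GS cells. GS cells were higher than week 1 (log2 fold change 0.74, SE 0.15, adjusted p = 0.00327), with no overlap between those groups. Hoxb1, which sets the identity of a hindbrain segment and responds to retinoic acid, was at 0 and 0.042 FPKM at week 0, then 2.1 and 3.67 at week 1, then 4.61 and 5.52 at week 2, then 2.67 and 3.04 at week 3, then 4.09 and 3.67 in GS cells. It had the lowest mean of the Hoxb genes from week 1 on. Week 1 was higher than week 0 (log2 fold change 1.90, SE 0.19, adjusted p = 2.51e-05). Hoxb13, a prostate and tail-bud gene set apart from the rest of the cluster, was at 0.193 and 0.0789 FPKM at week 0, then 6.9 and 7.73 at week 1, then 12 and 11.9 at week 2, then 12.2 and 10.1 at week 3, then 6.67 and 5.96 in GS cells. Hoxb13 rose at week 1 against week 0 (log2 fold change 2.87, SE 0.14, adjusted p = 2e-07). Its next rise was at week 2 against week 1 (log2 fold change 0.64, SE 0.14, adjusted p = 0.0045). GS cells were lower than week 3 (log2 fold change -0.72, SE 0.14, adjusted p = 0.00857), and libraries overlapped in none of these pairs.

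At week 2 against week 1, 7 Hoxb genes rose, Hoxb1, Hoxb4, Hoxb5, Hoxb6, Hoxb7, Hoxb8 and Hoxb13, while Hoxb2, Hoxb3 and Hoxb9 had log2 differences of 0.32, 0.13 and 0.28 that did not pass. The calls of Hoxb8 and Hoxb13 held with each library left out in turn. Without week 2 replicate 2 those of Hoxb1, Hoxb4, Hoxb5 and Hoxb6 were lost (adjusted p = 0.062 to 0.1), and the count of all Hox genes called higher was 5. Without week 1 replicate 2 the calls of Hoxb4, Hoxb5, Hoxb6 and Hoxb7 were lost (adjusted p = 0.0553 to 0.0684). Without week 2 replicate 1 those of Hoxb4 and Hoxb7 were lost (adjusted p = 0.0754 and 0.0722), and without week 1 replicate 1 that of Hoxb1 (adjusted p = 0.0809).

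Later calls in the cluster were fewer. At week 3 against week 2, Hoxb1 (log2 fold change -0.65, SE 0.19, adjusted p = 0.0471), Hoxb8 and Hoxb9 fell. The Hoxb9 call held with each library left out. The Hoxb8 call was lost without any one library of week 2 or week 3 (adjusted p = 0.0638 to 0.184). The Hoxb1 call was lost without any one library of weeks 0, 2 or 3 or GS cells (adjusted p = 0.0643 to 0.209). The lower Hoxb13 level of GS cells against week 3 was not called without week 3 replicate 1 (adjusted p = 0.0514) or GS cells replicate 2 (adjusted p = 0.0518). The higher Hoxb8 level of GS cells against week 1 was not called without week 1 replicate 1 (adjusted p = 0.121) or GS cells replicate 1 (adjusted p = 0.137). Against week 0, GS cells had all 10 Hoxb genes higher, with log2 fold changes from 2.02 for Hoxb3 to 5.11 for Hoxb8 and adjusted p-values up to 8.11e-06. None of these 10 calls was lost under an alternative.

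Markers of undifferentiated spermatogonia moved in the same direction as Hoxb at week 1 against week 0, where 9 of 10 rose with a median log2 fold change of 2.31, and in GS cells against week 0, where 10 of 10 rose with a median of 2.78. At week 2 against week 1, 8 rose and 1 fell, and at week 3 against week 2, 2 rose and 5 fell. The direction differed in GS cells against week 3, where 6 of the 10 markers rose and 0 fell while 0 Hoxb genes rose and Hoxb13 fell. Their part in the Hoxb levels was not tested. Fibroblast and matrix markers, described with the Hoxa cluster, went down between week 1 and week 2 while the Hoxb genes did not.

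The Hoxc cluster, at chr15:102921103-103036852 on the plus strand (116 kb), rose as a whole at week 1 against week 0, 9 of 9 genes, and then parted by position. At week 2 against week 1 the central genes Hoxc5, Hoxc6 and Hoxc8 fell, the posterior genes Hoxc9, Hoxc11 and Hoxc12 rose, and Hoxc4, Hoxc10 and Hoxc13 were not called. The week 2 mean over the week 1 mean ran from 0.308 in Hoxc5 to 2.91 in Hoxc12.

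Hoxc12, from the posterior end of the cluster, was at 0 and 0 FPKM at week 0, then 4.11 and 4.84 at week 1, then 12.5 and 13.5 at week 2, then 2.73 and 3.38 at week 3, then 2 and 1.73 in GS cells. Every neighbouring pair of groups was without overlap, and week 2 stood above all others. Since both week 0 libraries were listed at 0, no fold is given for the first week. Hoxc12 rose at week 2 against week 1 (log2 fold change 1.36, SE 0.13, adjusted p = 7.8e-05), the largest called rise among the tested Hox genes in that comparison. It fell at week 3 against week 2 (log2 fold change -1.79, SE 0.13, adjusted p = 0.000193), the largest called fall there. Hoxc13, required for hair and nail formation, was at 0 and 0.035 FPKM at week 0, then 5.7 and 7.7 at week 1, then 9.02 and 8.69 at week 2, then 4.59 and 3.98 at week 3, then 1.43 and 1.95 in GS cells. Hoxc11, which patterns the hindlimb and lower spine, was at 0 and 0.0435 FPKM at week 0, then 2.96 and 3.55 at week 1, then 6.35 and 6.46 at week 2, then 3.63 and 3.49 at week 3, then 1.46 and 1.9 in GS cells. Both were highest at week 2 and lowest, among the cultured groups, in GS cells. Hoxc13 fell at week 3 against week 2 (log2 fold change -0.90, SE 0.16, adjusted p = 0.00726) and in GS cells against week 3 (log2 fold change -0.98, SE 0.16, adjusted p = 0.00511). Hoxc11 had the same falls, at week 3 against week 2 (log2 fold change -0.70, SE 0.13, adjusted p = 0.00747) and in GS cells against week 3 (log2 fold change -0.77, SE 0.13, adjusted p = 0.00496). With only GS cells and week 3 in the fit, the latter call was lost for Hoxc13 (adjusted p = 0.0581) and Hoxc11 (adjusted p = 0.0604).

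Hoxc10, a gene of lumbar motor neurons, was at 0.396 and 0.463 FPKM at week 0, then 9.73 and 8.62 at week 1, then 12.4 and 11.5 at week 2, then 4.29 and 3.91 at week 3, then 3.39 and 2.42 in GS cells. Hoxc10 rose at week 1 against week 0 (log2 fold change 2.83, SE 0.15, adjusted p = 3.72e-07). Week 3 was lower than week 2 (log2 fold change -1.34, SE 0.15, adjusted p = 0.000922), and its GS libraries lay below those of week 3. Hoxc9, which sets the identity of thoracic motor neurons, was at 1.11 and 0.983 FPKM at week 0, then 4.99 and 4.94 at week 1, then 6.62 and 8.08 at week 2, then 3.45 and 3.46 at week 3, then 2.31 and 1.91 in GS cells. Week 2 was its highest group. Hoxc9 rose at week 1 against week 0 (log2 fold change 1.54, SE 0.13, adjusted p = 8.24e-06) and fell at week 3 against week 2 (log2 fold change -0.90, SE 0.13, adjusted p = 0.00306). The span of Hoxc5 runs across Hoxc6, Hoxc8 and Hoxc9 and into Hoxc10, with which it shares 166 exon bases, so reads of Hoxc5 and Hoxc10 could be split between them.

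Hoxc8, a gene of the trunk skeleton and forelimb motor neurons, was at 0.348 and 0.445 FPKM at week 0, then 10.3 and 9.09 at week 1, then 3.8 and 4.86 at week 2, then 2.25 and 1.75 at week 3, then 0.788 and 0.848 in GS cells. Each step after week 1 was downward without overlap. Hoxc6, a thoracic gene, was at 2.76 and 3.15 FPKM at week 0, then 13.7 and 10.2 at week 1, then 2.82 and 4.56 at week 2, then 2.4 and 1.81 at week 3, then 0.309 and 0.659 in GS cells. Hoxc6 rose at week 1 against week 0 (log2 fold change 1.70, SE 0.23, adjusted p = 0.000153) and fell at week 2 against week 1 (log2 fold change -1.47, SE 0.23, adjusted p = 0.000855). GS cells ended below week 0 (log2 fold change -1.42, SE 0.23, adjusted p = 0.000445). That last call was lost with quantile normalization (adjusted p = 0.194). Hoxc5 was at 0.568 and 0.584 FPKM at week 0, then 2.75 and 3.2 at week 1, then 1.21 and 0.618 at week 2, then 0.422 and 0.195 at week 3, then 0.164 and 0.144 in GS cells. Hoxc4, which acts in the neck and oesophagus, was at 1.07 and 1.52 FPKM at week 0, then 5.13 and 2.74 at week 1, then 2.16 and 2.44 at week 2, then 3.06 and 2.15 at week 3, then 1.95 and 2.17 in GS cells. Hoxc5 passed the filter through week 1 and week 2 replicate 1. Its log2 fold change of -1.07 at week 2 against week 1 (SE 0.16) is thus a description. The libraries of Hoxc4 overlapped in weeks 2 and 3 and GS cells.

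All 9 Hoxc genes were lower in GS cells than at week 1, with log2 fold changes from -3.12 for Hoxc6 to -0.65 for Hoxc4, and the mean of GS cells was 0.0406 to 0.523 of the week 1 mean. Against week 0, GS cells had all 6 genes from Hoxc8 to Hoxc13 higher and Hoxc5 and Hoxc6 lower. Hoxc4 differed by 0.42 on the log2 scale, which did not pass. The lower Hoxc5 level turned to a log2 difference of 0.28 with quantile normalization (adjusted p = 0.148) and lost its call with FPKM rescaled to the same sum (adjusted p = 0.118). It also lost it without any one library of week 0 or GS cells (adjusted p = 0.0814 to 0.125). The Hoxc8 rise was lost without any one library of week 0 or GS cells (adjusted p = 0.09 to 0.178). The Hoxc11 call in GS cells against week 1 was lost with quantile normalization (adjusted p = 0.117).

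Several smaller Hoxc calls rested on single libraries. The Hoxc9 rise at week 2 against week 1 was lost without week 2 replicate 2 (adjusted p = 0.102). The Hoxc5 fall at week 3 against week 2 (log2 fold change -0.54, SE 0.16, adjusted p = 0.0456) was lost without any one library except week 2 replicate 2 (adjusted p = 0.0515 to 0.228), and was -0.31 without week 2 replicate 1. Among the falls in GS cells against week 3, calls were lost for Hoxc6 without week 3 replicate 1 or GS cells replicate 1 (adjusted p = 0.0782 and 0.0879). They were lost for Hoxc8 without week 3 replicate 1 or either GS library (adjusted p = 0.0501 to 0.0691). The same comparison lost Hoxc9 without any one library of week 3 or GS cells (adjusted p = 0.0548 to 0.13) and Hoxc12 without any one library of week 0 or GS cells or without week 3 replicate 2 (adjusted p = 0.0532 to 0.157). The Hoxc4 fall in GS cells against week 1 was lost without any one library of weeks 0 and 2 or GS cells (adjusted p = 0.0506 to 0.155). It was lost with quantile normalization (log2 fold change -0.25, adjusted p = 0.399) and with FPKM rescaled to the same sum (log2 fold change -0.48, adjusted p = 0.109). Without week 1 replicate 1 it was -0.29 (adjusted p = 0.259), where it was -1.0 without week 1 replicate 2.

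The Hoxa cluster, at chr6:52155590-52260880 on the minus strand (105 kb), rose at week 1 against week 0 from Hoxa5 to Hoxa13, 7 genes, and all 9 tested Hoxa genes fell at week 2 against week 1. Hoxa5 and Hoxa6 passed the filter through week 1 alone and Hoxa4 through weeks 0 and 1, so the filter shaped their part in these counts. The 4 posterior Hoxa genes were not called at week 3 against week 2, and all 4 fell in GS cells against week 3. GS means were 0.0346 (Hoxa9) to 0.173 (Hoxa4) of the week 1 means, with a median of 0.057.

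Hoxa10, needed for the uterus and for descent of the testis, was at 0.156 and 0.256 FPKM at week 0, then 11.8 and 10.4 at week 1, then 3.97 and 4.98 at week 2, then 4.98 and 3.74 at week 3, then 0.505 and 1.28 in GS cells. Weeks 2 and 3 overlapped. Hoxa10 rose at week 1 against week 0 (log2 fold change 3.33, SE 0.22, adjusted p = 1.42e-06) and fell at week 2 against week 1 (log2 fold change -1.15, SE 0.22, adjusted p = 0.00242). GS cells were lower than week 3 (log2 fold change -1.52, SE 0.22, adjusted p = 0.00266), a call lost with only these 2 groups in the fit (adjusted p = 0.0685). Hoxa11, which acts in kidney, forearm and uterus, was at 0.0463 and 0 FPKM at week 0, then 4.25 and 3.61 at week 1, then 1.94 and 1.76 at week 2, then 1.71 and 1.85 at week 3, then 0.205 and 0.224 in GS cells. Here too weeks 2 and 3 overlapped. Hoxa11 rose at week 1 against week 0 (log2 fold change 2.27, SE 0.10, adjusted p = 1.57e-07) and fell at week 2 against week 1 (log2 fold change -0.79, SE 0.10, adjusted p = 0.000369). A second fall came in GS cells against week 3 (log2 fold change -1.20, SE 0.10, adjusted p = 0.000384). Hoxa13, a gene of digits and the urogenital tract, was at 0 and 0.14 FPKM at week 0, then 3.22 and 2.46 at week 1, then 0.824 and 1.84 at week 2, then 1.21 and 1.5 at week 3, then 0.251 and 0.0726 in GS cells. Week 1 was its highest group. Hoxa13 rose at week 1 against week 0 (log2 fold change 1.84, SE 0.21, adjusted p = 5.5e-05). GS cells were lower than week 1 (log2 fold change -1.72, SE 0.21, adjusted p = 0.000206).

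Hoxa9, known from blood stem cells and leukaemia, was at 1.35 and 1.83 FPKM at week 0, then 6.57 and 8.51 at week 1, then 2.92 and 2.41 at week 2, then 1.79 and 1.5 at week 3, then 0.359 and 0.162 in GS cells. Hoxa7 was at 0.955 and 1.87 FPKM at week 0, then 7.14 and 6.48 at week 1, then 2 and 1.74 at week 2, then 1.42 and 1.11 at week 3, then 0.357 and 0.401 in GS cells. Both were highest at week 1 and lowest in GS cells, with no overlap between weeks 1 and 2 or between week 3 and GS cells. They rose at week 1 against week 0 by 1.72 (Hoxa9, adjusted p = 1.88e-05) and 1.72 (Hoxa7, adjusted p = 3.13e-05) on the log2 scale. GS cells were below week 0 in Hoxa9 (log2 fold change -1.04, SE 0.17, adjusted p = 0.000457) and Hoxa7 (log2 fold change -0.78, SE 0.18, adjusted p = 0.0038) on the authors' scale. With quantile normalization neither passed (adjusted p = 0.894 for Hoxa9 and 0.251 for Hoxa7), and Hoxa7 turned to 0.21.

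Hoxa5, needed for lung development, was at 0.288 and 0.472 FPKM at week 0, then 8.61 and 8.92 at week 1, then 0.655 and 0.444 at week 2, then 0.164 and 0.221 at week 3, then 0.311 and 0.349 in GS cells. It was high at week 1 alone, and the libraries of all other groups stayed below 0.7 FPKM. Since week 1 alone took Hoxa5 past the filter, its log2 fold changes of 2.83 at week 1 against week 0 and -2.66 at week 2 against week 1 (SE 0.11) are descriptions. Hoxa6 was at 0.431 and 0 FPKM at week 0, then 1.16 and 1.77 at week 1, then 0.288 and 0.332 at week 2, then 0.102 and 0.157 at week 3, then 0 and 0.237 in GS cells. It too passed the filter through week 1 alone, and its log2 fold change of 1.03 there against week 0 (SE 0.19) is a description. Its lower level at week 2 against week 1 was not called with a pseudocount of 0.1 (adjusted p = 0.0774). Hoxa2 did not pass the filter, with 1.14 and 0.917 FPKM at week 1 and at most 0.262 elsewhere.

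**Figure D4:**
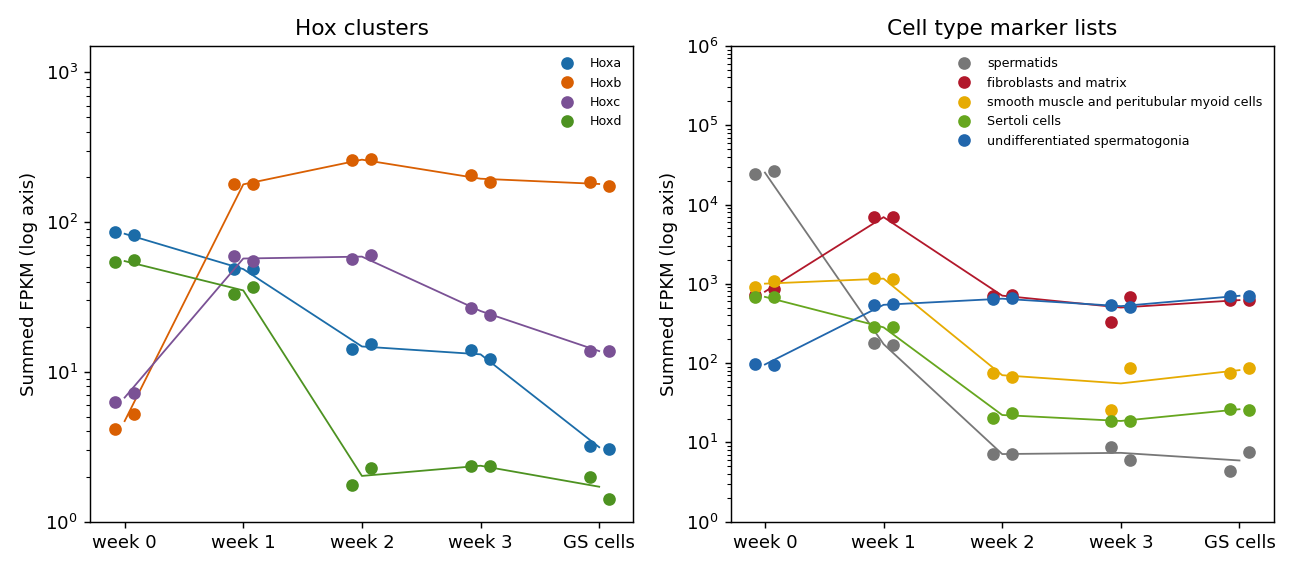
Summed FPKM, on log axes, of the 4 Hox clusters (left) and of 5 lists of cell type markers (right) in each library (points), with lines through the means of 2, by group. The fibroblast and matrix sum is highest at week 1, at 6896 to 6959 FPKM, and the spermatid sum is highest at week 0. The Hoxa and Hoxd sums are highest at week 0 as well, where Hoxa4 and Hoxd8 held most of them.

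The week 1 peak of most Hoxa genes went with that of the fibroblast and matrix markers. All 16 of these markers rose at week 1 against week 0 (median log2 fold change 2.66) and all 16 fell at week 2 against week 1 (median -2.93). The direction differed in GS cells against week 3, where 4 of the 16 markers rose and 0 fell (median 0.41). There 0 Hoxa genes rose and 5 fell (median -0.71). The summed level of the markers was 722.6 to 868.1 FPKM at week 0, 6896 to 6959 at week 1, 694.0 to 723.5 at week 2, 326.9 to 676.8 at week 3, and then 618.8 to 626.0 in GS cells, with none at 0 in both libraries of a group. The week 3 libraries differed most between replicates in this sum. Smooth muscle and peritubular myoid markers, 7 genes, summed to 922.9 to 1085 FPKM at week 0, 1136 to 1186 at week 1, 66.2 to 74.5 at week 2, 25.3 to 85.5 at week 3, and then 75.4 to 87.7 in GS cells. Their part in the Hox levels was not tested.

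The other marker lists moved as follows. The 11 Sertoli markers summed to 679.1 to 689.5 FPKM at week 0, 281.6 to 283.2 at week 1 and at most 26.5 in later groups, with Fshr at 0 from week 1 on. The 6 macrophage markers summed to 67.8 to 86.7 at week 0, 77.6 to 80.6 at week 1, 74.0 to 78.3 at week 2, 72.8 to 112.9 at week 3, and then 29.1 to 31.1 in GS cells. The 5 endothelial markers summed to 15.9 to 17.6 at week 0, 10.9 to 11.5 at week 1 and at most 6.33 later. The 4 germ cell markers of all stages summed to 996.8 to 1104 at week 0, 483.3 to 492.8 at week 1, 772.5 to 792.9 at week 2, 1004 to 1086 at week 3, and then 797.7 to 902.8 in GS cells. Leydig markers were at most 10.1 from week 2 on.

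Some Hoxa calls depended on single libraries. Hoxa13 at week 2 against week 1 (log2 fold change -0.75, SE 0.21, adjusted p = 0.0167) was lost without week 1 replicate 1 (adjusted p = 0.0925) and without week 2 replicate 1 (log2 fold change -0.43, adjusted p = 0.0978). It was also lost with quantile normalization (log2 fold change -0.38, adjusted p = 0.158) and with FPKM rescaled to the same sum (adjusted p = 0.0513). Hoxa5 at week 3 against week 2 (log2 fold change -0.37, SE 0.11, adjusted p = 0.0478) was lost without any one library of weeks 0, 2 and 3 or GS cells (adjusted p = 0.0733 to 0.246). Of the falls in GS cells against week 3, Hoxa7 (log2 fold change -0.71, SE 0.18, adjusted p = 0.0265) was lost without any one library of week 3 or GS cells (adjusted p = 0.0597 to 0.129). Hoxa13 was lost there (log2 fold change -1.02, SE 0.21, adjusted p = 0.0123) without week 3 replicate 2 or GS cells replicate 2 (adjusted p = 0.0647 and 0.0723). Hoxa10 was the only Hoxa gene called higher in GS cells than at week 0 (log2 fold change 0.62, SE 0.22, adjusted p = 0.0273). That call was lost without any one week 0 library or without GS cells replicate 2 (adjusted p = 0.0609 to 0.192), with a log2 fold change of 0.32 in the last case. Hoxa4 in GS cells against week 1 (log2 fold change -0.81, SE 0.25, adjusted p = 0.0232) was lost without week 1 replicate 2 or either GS library (adjusted p = 0.0602 to 0.101) and was -1.26 without week 1 replicate 1. Quantile normalization ended that call too (log2 fold change -0.54, adjusted p = 0.0715). Hoxa7 in GS cells against week 0 was -0.50 without week 0 replicate 2 and still called.

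The Hoxd cluster, at chr2:74668310-74765142 on the plus strand (96.8 kb), was low in every library from week 2 on. All 6 tested Hoxd genes fell at week 2 against week 1, and none of the 6 was called at week 3 against week 2 or in GS cells against week 3. Hoxd11 and Hoxd13 passed the filter through week 1 alone, and Hoxd4, Hoxd9 and Hoxd10 through weeks 0 and 1. The filter thus shaped the count of falls. From week 2 on these genes, all but Hoxd8, were below FPKM 1 in every library, where changes come out too small on the log2(FPKM + 1) scale. At week 1 against week 0 the posterior genes Hoxd10, Hoxd11 and Hoxd13 rose while Hoxd4, Hoxd8 and Hoxd9 fell. The start regions of Hoxd8, Hoxd9 and Hoxd13 are shown because they belong to genes of the same cluster that moved in opposite directions in the first week. They lie on the plus strand of GRCm38.p6 at chr2:74704365-74704664, chr2:74697513-74697812 and chr2:74667975-74668274, with capitals as above.
Hoxd8: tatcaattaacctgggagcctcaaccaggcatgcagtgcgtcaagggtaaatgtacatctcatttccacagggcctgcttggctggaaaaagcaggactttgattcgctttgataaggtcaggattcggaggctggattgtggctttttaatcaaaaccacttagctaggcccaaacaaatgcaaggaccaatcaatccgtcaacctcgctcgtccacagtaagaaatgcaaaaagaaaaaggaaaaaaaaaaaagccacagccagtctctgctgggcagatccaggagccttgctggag
Hoxd9: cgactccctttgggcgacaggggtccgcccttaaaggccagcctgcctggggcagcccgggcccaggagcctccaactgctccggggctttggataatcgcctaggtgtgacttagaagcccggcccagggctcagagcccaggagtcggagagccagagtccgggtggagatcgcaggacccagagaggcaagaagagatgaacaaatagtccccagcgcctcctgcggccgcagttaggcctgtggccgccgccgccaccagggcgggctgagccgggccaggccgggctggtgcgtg
Hoxd13: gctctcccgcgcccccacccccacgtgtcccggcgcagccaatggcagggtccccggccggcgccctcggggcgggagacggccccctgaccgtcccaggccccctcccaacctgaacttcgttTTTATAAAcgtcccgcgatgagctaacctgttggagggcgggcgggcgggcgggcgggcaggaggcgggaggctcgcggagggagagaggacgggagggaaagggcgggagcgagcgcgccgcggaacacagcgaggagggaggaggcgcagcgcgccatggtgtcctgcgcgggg

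Hoxd13 holds 2 matches to TATAAA, which overlap each other on opposite strands, and Hoxd8 and Hoxd9 hold none of the 3 motifs in these windows. The windows had 6 CpG dinucleotides in Hoxd8, 20 in Hoxd9 and 37 in Hoxd13.

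Hoxd13, the last gene of the cluster and needed for digits, was at 0.127 and 0.0693 FPKM at week 0, then 7.46 and 6.96 at week 1, then 0.339 and 0.261 at week 2, then 0.121 and 0.0929 at week 3, then 0.166 and 0.326 in GS cells. It was high at week 1 alone and below 0.4 FPKM in every other library. Week 1 alone took Hoxd13 past the filter, so its log2 fold changes of 2.90 at week 1 against week 0 and -2.66 at week 2 against week 1 (SE 0.10) are descriptions. Hoxd10, a gene of lumbar motor neurons, was at 2.03 and 2.01 FPKM at week 0, then 8.2 and 7.81 at week 1, then 0.2 and 0.184 at week 2, then 0.17 and 0.0656 at week 3, then 0.0588 and 0.197 in GS cells. Week 1 was higher than week 0 (log2 fold change 1.58, SE 0.10, adjusted p = 1.49e-06). Hoxd10 passed the filter through weeks 0 and 1 alone. Its log2 fold changes of -2.92 at week 2 against week 1 and -1.42 in GS cells against week 0 (SE 0.10) are descriptions. Hoxd11, which acts with Hoxa11 in the forearm, was at 0.516 and 0.0872 FPKM at week 0, then 3.48 and 2.52 at week 1, then 0.132 and 0.572 at week 2, then 0.0217 and 0.0582 at week 3, then 0.0899 and 0.159 in GS cells. Like Hoxd13, it passed the filter through week 1 alone. Its log2 fold changes of 1.63 at week 1 against week 0 and -1.57 at week 2 against week 1 (SE 0.21) are descriptions.

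Hoxd9, from the lumbar range of the body axis, was at 3.64 and 4.13 FPKM at week 0, then 3 and 2.82 at week 1, then 0.0334 and 0.0384 at week 2, then 0.0355 and 0.301 at week 3, then 0.049 and 0 in GS cells. From week 2 on it was at or near 0. Hoxd9 passed the filter through weeks 0 and 1 alone, so its log2 fold change of -1.92 at week 2 against week 1 (SE 0.12) is a description. Its fall at week 1 against week 0 was small (log2 fold change -0.32, SE 0.12, adjusted p = 0.0418) and was lost without any one library of weeks 0, 1 and 2 or GS cells (adjusted p = 0.0619 to 0.279). The rows not tested were Hoxd1, Hoxd3, Hoxd12 and the second Hoxd4 row. Hoxd1 had at most 0.216 FPKM, Hoxd3 1.65 and 0.709 at week 1 and at most 0.0419 elsewhere, and Hoxd12 0.539 and 0.161 at week 1 and at most 0.0414 elsewhere. Hoxd3, like Hoxd4, shares exon bases with Gm28230, 2225 of them.

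The 16 fibroblast and matrix markers fell with the Hoxd genes at week 2 against week 1, with the values given for Hoxa. Of the 18 Hox genes that fell at that step, 9 were Hoxa, 3 Hoxc and 6 Hoxd. The part of these markers in the Hoxd falls was not tested.

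**Figure D5:**
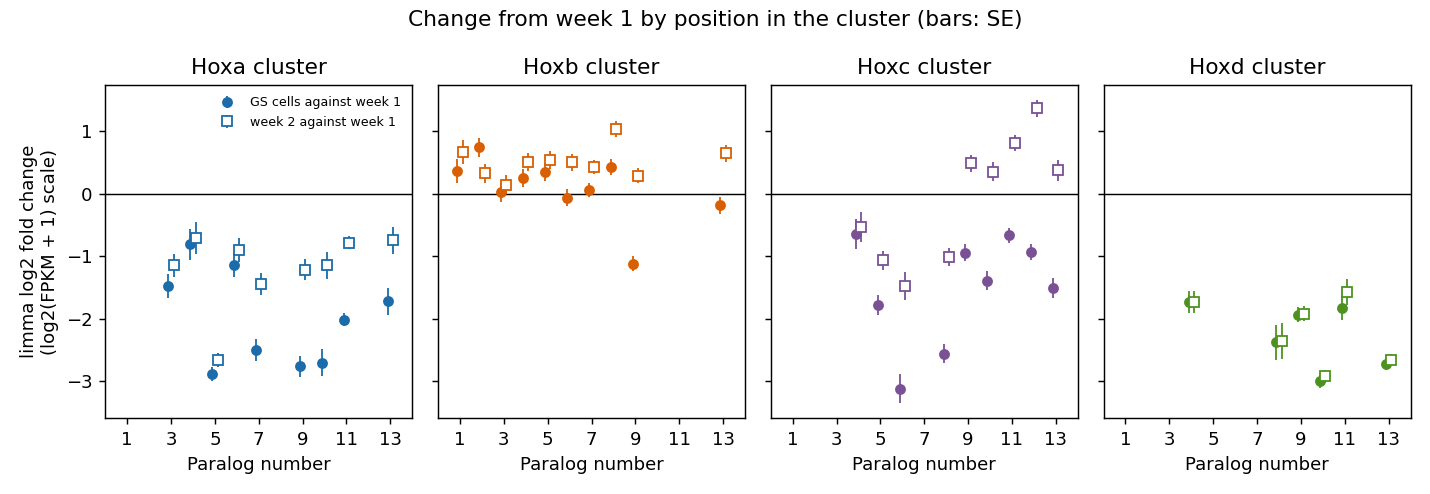
Log2 fold change (vertical axis, limma estimate on log2(FPKM + 1), bars 1 SE) of each tested Hox gene by paralog number (horizontal axis) and cluster, for GS cells against week 1 (filled circles) and week 2 against week 1 (open squares). At week 2 the Hoxa and Hoxd genes lie below 0 and the Hoxb genes above it, and in Hoxc the sign changes between paralog groups 8 and 9.

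Compared by position over the clusters, the posterior genes more often had a called fall in GS cells. Between GS cells and week 1, 14 of 15 tested posterior genes were lower, all but Hoxb13, with a median log2 fold change of -1.72. Over all genes 29.0% were lower there. Of 15 central genes 10 were lower and Hoxb8 higher, with a median of -1.14. The posterior falls of Hoxd11 and Hoxd13 and the central falls of Hoxa5 and Hoxa6 follow from the filter, which these genes passed through week 1 alone. The filter also shaped the posterior falls of Hoxd9 and Hoxd10 and the central falls of Hoxa4, Hoxc5 and Hoxd4. None of these reached FPKM 1 in GS cells. Of 4 anterior genes Hoxa3 was lower and Hoxb2 higher. GS cells were lower than week 3 in 9 of 15 posterior, 3 of 15 central and 0 of 4 anterior genes, against 10.8% of all genes. Position and cluster are tied here, because Hoxb has only 2 posterior genes and gives 3 of the 4 anterior ones tested, and the difference between positions was not tested.

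The partners and regulators of HOX proteins were read from lists of their own, which, like the Hox genes, were picked with earlier results of these data known. Their counts stand against the shares of all genes called higher and lower, which were 36.3% and 44.0% at week 1 against week 0, 28.2% and 27.4% at week 2 against week 1, and 10.6% and 10.7% at week 3 against week 2. For GS cells these shares were 11.7% and 10.8% against week 3, 34.7% and 45.9% against week 0, and 29.7% and 29.0% against week 1. Of 9 TALE homeobox cofactors, which bind DNA with HOX proteins, 5 rose and 3 fell at week 1 against week 0, and 3 rose and 6 fell at week 2 against week 1 (median log2 fold change -1.10, against 0.03 over all genes). Meis3 was at 2.53 and 3.1 FPKM at week 0, then 14.3 and 8.42 at week 1, then 0.905 and 1.1 at week 2, then 0.313 and 0.774 at week 3, then 0.517 and 0.999 in GS cells. It fell at week 2 against week 1 (log2 fold change -2.58, SE 0.26, adjusted p = 7.99e-05), as did Meis1 (log2 fold change -2.05, SE 0.13, adjusted p = 7.55e-06). Pbx4, the cofactor of the testis, was at 161 and 158 FPKM at week 0, then 4.19 and 1.24 at week 1, then 9.95 and 9.8 at week 2, then 9.59 and 9.2 at week 3, then 7.2 and 5.06 in GS cells. It was lower at week 1 against week 0 (log2 fold change -5.55, SE 0.34, adjusted p = 8.68e-07). Pbx2 was at 26.9 and 29.4 FPKM at week 0, then 41.7 and 48 at week 1, then 73.5 and 71.3 at week 2, then 77.2 and 61.9 at week 3, then 83.8 and 71.7 in GS cells. It was higher in GS cells than at week 0 (log2 fold change 1.43, SE 0.13, adjusted p = 1.14e-05). Of the cofactors, 1 rose and 6 fell in GS cells against week 0, and 3 rose and 6 fell in GS cells against week 1.

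Of 11 activating chromatin regulators of the MLL and trithorax group, 4 rose and 5 fell at week 1 against week 0, 9 rose and 0 fell at week 2 against week 1, 0 were called at week 3 against week 2, and 1 rose in GS cells against week 3. In GS cells 5 were higher and 5 lower than at week 0, and 7 higher and 0 lower than at week 1. The split at week 1 against week 0 was about that of all genes. Kmt2a, which encodes the MLL1 methyltransferase that maintains Hox expression, was at 8.93 and 9.5 FPKM at week 0, then 18.8 and 22.3 at week 1, then 34.9 and 36.7 at week 2, then 26.2 and 30.0 at week 3, then 31.3 and 37.1 in GS cells. It rose at week 1 against week 0 (log2 fold change 1.07, SE 0.12, adjusted p = 5.63e-05). Kdm6b, a demethylase that removes the Polycomb mark, was at 14.6 and 15.2 FPKM at week 0, then 43.7 and 54.1 at week 1, then 79.5 and 83.7 at week 2, then 66.3 and 64.6 at week 3, then 109.6 and 108 in GS cells. Its GS libraries lay above all others (log2 fold change 2.79, SE 0.10, adjusted p = 3.8e-08 against week 0).

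Of 15 Polycomb genes, 5 rose and 6 fell at week 1 against week 0, 10 rose and 0 fell at week 2 against week 1, 2 rose and 4 fell at week 3 against week 2, and 3 rose and 3 fell in GS cells against week 3. Against week 0, GS cells had 8 higher and 6 lower, and against week 1, 9 higher and 0 lower. At week 1 against week 0 the Polycomb counts were near the shares over all genes. Cbx2, a reader of the Polycomb mark needed for testis formation, was at 13.1 and 14.8 FPKM at week 0, then 10.4 and 12.1 at week 1, then 30.0 and 28 at week 2, then 57.3 and 47.8 at week 3, then 32.1 and 31.1 in GS cells. Cbx2 rose at week 2 against week 1 (log2 fold change 1.30, SE 0.12, adjusted p = 5.79e-05). Ezh2, the Polycomb methyltransferase, was at 111 and 98.7 FPKM at week 0, then 40.3 and 37.7 at week 1, then 55 and 50.6 at week 2, then 22.2 and 31.6 at week 3, then 38.3 and 42.7 in GS cells. Week 0 was above every other group (log2 fold change -1.35, SE 0.16, adjusted p = 5.31e-05 in GS cells against week 0).

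Of 12 retinoic acid enzymes and receptors 11 were tested, of which 4 rose and 6 fell at week 1 against week 0, 3 rose and 7 fell at week 2 against week 1, 3 rose and 1 fell at week 3 against week 2, and 1 rose in GS cells against week 3. In GS cells 3 were higher and 5 lower than at week 0, and 4 higher and 5 lower than at week 1. The rises at week 1 against week 0 and at week 2 against week 1 were near the shares over all genes. Aldh1a2, which makes retinoic acid, was at 72.8 and 68.6 FPKM at week 0, then 132 and 134 at week 1, then 10.1 and 10.8 at week 2, then 14.3 and 14.4 at week 3, then 14.3 and 12.4 in GS cells. It fell at week 2 against week 1 (log2 fold change -3.54, SE 0.09, adjusted p = 5.41e-07). Cyp26b1, which breaks it down, was at 108 and 119.6 FPKM at week 0, then 3.51 and 5.43 at week 1, then 0.465 and 0.848 at week 2, then 0.617 and 0.743 at week 3, then 0.25 and 0.277 in GS cells. It fell at week 1 against week 0 (log2 fold change -4.41, SE 0.19, adjusted p = 1.11e-07). Rarg, a receptor, was at 8.13 and 10.3 FPKM at week 0, then 15.9 and 14.4 at week 1, then 10.8 and 11.3 at week 2, then 39.5 and 35.3 at week 3, then 32.5 and 31.4 in GS cells. Week 3 and GS cells lay above the earlier groups (log2 fold change 1.70, SE 0.12, adjusted p = 2.93e-06 in GS cells against week 0). Fibroblast and matrix markers fell at the same step as Aldh1a2, Meis1 and Meis3, and their part in those falls was not tested.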

How the data were processed

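The values are FPKM, normalized by the authors, in the deposited table of 21969 genes and 10 libraries. Per the labels' protocols, the kit was TruSeq Stranded mRNA (Illumina), on total RNA. The submitters' processing notes name the build mm10, the aligners HISAT2 2.1.0 and Bowtie2 2.3.4.1, the quantification tools Cuffdiff and Cufflinks 2.2.1, and cutadapt 1.16 with bcl2fastq 2.17.1.14. The sources used here do not give the annotation, the normalization method or whether counting used strand, so antisense Hox RNAs could not be told apart.

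Tests used log2(FPKM + 1), with 1 as the pseudocount, on 15671 genes that reached FPKM 1 in 2 or more libraries. Changes of low genes come out too small on this scale. All 5 groups were fitted in limma 3.58.1 (R 4.3.3, empirical Bayes with an intensity trend, 5 residual degrees of freedom), two-sided, with Benjamini-Hochberg adjustment within a comparison and a threshold of 0.05. The code was tested on simulated data. Depth was read from the steps of low FPKM values in 2268 genes with a lone transcript of at least 1500 nucleotides, taking a fragment of 200, and 96.0% to 99.4% of these values were whole within 0.15 of a read. No count model was run, because other transcript lengths would need the unnamed annotation. Coordinates came from GENCODE M21 (GRCm38), which held 39 of the 40 Hox rows, and promoter windows from RefSeq.

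All Hox genes tested are named with every library's value. Values of some other genes are not reported here. Of other genes only those on fixed lists are named, at most 3 per direction and comparison with the largest called changes. The Hox genes and all lists were chosen with earlier results of these data known. Alternatives were a pseudocount of 0.1, no filter, quantile normalization, FPKM rescaled to the same sum, no trend, a replicate block, each library left out, only the groups compared, and Hox shares without Hoxb8. GS cells against week 1 and a fit without the week 0 libraries were added after seeing the data.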

Additional observations from a re-analysis of the deposited data

How the results depend on the processing

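Of 139 called Hox gene comparisons, 101 were kept under every alternative run and 38 were lost under at least 1. With a pseudocount of 0.1 and with quantile normalization, 2 Hox genes were lower at week 1 against week 0. Quantile normalization gave 6 lower in GS cells against week 0, and, like rescaling to the same sum, 5 higher in GS cells against week 1. It also turned Hoxd9 at week 1 against week 0 to 0.35, and in GS cells against week 0 Hoxa7 to 0.21 and Hoxc5 to 0.28, none of them called. With only the groups compared in the fit, 1 gene was higher and 6 lower at week 3 against week 2, 4 lower in GS cells against week 3 and 1 higher in GS cells against week 1. In GS cells against week 3, that fit lost the calls of Hoxa10, Hoxb13 and all Hoxc genes called there. With each library left out in turn, 5 to 11 Hox genes were higher at week 2 against week 1, 7 to 10 lower at week 3 against week 2, 6 to 12 lower in GS cells against week 3 and 1 to 3 higher in GS cells against week 1. The causes of these changes were not tested, and fits that leave libraries out also hold fewer samples.

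The labels do not say if the replicate numbers pair the samples. The replicate differences of 2 groups correlated across genes at -0.0525 to 0.0458, so no shared replicate effect was seen, which cannot settle the pairing. A replicate block lost 5 calls in all. It gave 29 genes higher and 5 lower at week 1 against week 0, 10 higher and 18 lower at week 2 against week 1, and 0 higher and 8 lower at week 3 against week 2. For GS cells it gave 0 higher and 12 lower against week 3, 16 higher and 10 lower against week 0, and 2 higher and 24 lower against week 1.

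Without Hoxb8, the Hoxa, Hoxb, Hoxc and Hoxd shares of the Hox sum were 16.7%, 51.6%, 19.7% and 12% at week 1. At week 2 they were 5.34%, 72.7%, 21.2% and 0.729%, at week 3 6.8%, 78.7%, 13.2% and 1.23%, and for GS cells 1.97%, 88.3%, 8.63% and 1.07%. The anterior, central and posterior shares were then 10.7%, 46.6% and 42.7% at week 1. At week 2 they were 11.9%, 44.4% and 43.7%, at week 3 18.7%, 50.1% and 31.2%, and for GS cells 22.2%, 54.5% and 23.2%. The posterior share was then highest at week 2. Depth limits the lowest values, since 3 reads of a Hox transcript of median length stood for 0.139 FPKM in the shallowest library, one of week 0.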

Other observations

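The genes that flank the Hox clusters were read beside them, with no test of a difference. Among the 3 nearest protein-coding genes with a row on each side of each cluster, 22 of 24 were tested, of which 9 rose and 4 fell at week 1 against week 0, with a median log2 fold change of 0.36 where the tested Hox genes had 2.03. Over all genes 36.3% rose and 44.0% fell there, so the rises of the flanking genes were near the background and their falls below it. At week 2 against week 1, 6 rose and 5 fell, near the 28.2% and 27.4% of all genes, at week 3 against week 2, 1 rose and 4 fell, and in GS cells against week 3, 3 rose and 2 fell. The shares of all genes called higher and lower were 10.6% and 10.7% at week 3 against week 2, and 11.7% and 10.8% in GS cells against week 3. GS cells had 12 higher and 5 lower than week 0, where 34.7% of all genes were higher and 45.9% lower. The flanking genes thus had more rises and fewer falls than the background there. Against week 1, GS cells had 6 higher and 6 lower, near the 29.7% and 29.0% of all genes. Ttll6, a tubulin polyglutamylase 28.9 kb from Hoxb13, was at 79.9 and 73.1 FPKM at week 0, then 0.738 and 0.757 at week 1, then 1.76 and 1.95 at week 2, then 0.849 and 0.767 at week 3, then 1.03 and 0.822 in GS cells. It fell at week 1 against week 0 (log2 fold change -5.47, SE 0.12, adjusted p = 2.24e-09), the step at which all 10 Hoxb genes rose. Lnpk, 88.9 kb from Hoxd13 and an endoplasmic reticulum protein, was at 45.1 and 36.1 FPKM at week 0, then 11.2 and 12 at week 1, then 11.4 and 9.47 at week 2, then 9.42 and 10.2 at week 3, then 7.39 and 8.79 in GS cells. Week 0 was above all other groups (log2 fold change -1.71, SE 0.15, adjusted p = 8.96e-06 at week 1 against week 0). Nfe2l2, the oxidative stress factor NRF2, lies 910 kb from Hoxd1 and was at 14.9 and 17.1 FPKM at week 0, then 95.7 and 89.7 at week 1, then 40.5 and 40.9 at week 2, then 33.7 and 31.8 at week 3, then 44.9 and 47 in GS cells. It was highest at week 1 (log2 fold change 2.47, SE 0.09, adjusted p = 3.48e-08 against week 0).

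Genes related to the Hox clusters were low. Of 8 Cdx, ParaHox and Evx genes, which include upstream activators of posterior Hox genes, Cdx2 and Pdx1 passed the filter. Cdx2 was at 0 and 0 FPKM at week 0, then 1.89 and 1.43 at week 1, then 1.32 and 1.48 at week 2, then 0.167 and 0.309 at week 3, then 1.08 and 0.593 in GS cells. Since both week 0 libraries were listed at 0, no fold is given for it there, and it fell at week 3 against week 2 (log2 fold change -0.96, SE 0.15, adjusted p = 0.00374). Pdx1 was at 0.395 and 0.283 FPKM at week 0, then 3 and 1.54 at week 1, then 2.08 and 1.56 at week 2, then 0.668 and 0.46 at week 3, then 1.43 and 0.678 in GS cells. It rose at week 1 against week 0 (log2 fold change 1.25, SE 0.24, adjusted p = 0.00146). In that comparison 2 of these genes rose and 0 fell, at week 2 against week 1 0 were called, at week 3 against week 2 both fell, and in GS cells 1 was higher than at week 3, 1 higher than at week 0 and 2 lower than at week 1. Evx1 and Evx2, which lie beside the posterior ends of Hoxa and Hoxd, did not exceed 0.772 FPKM in any library.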
